A study of Mus musculus with 6 samples.

Results

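Transcripts of the non-heme iron oxygenases were examined in the kidneys of iron-deficient mouse pups. The 44 genes were chosen by symbol from the deposited tables of 24422 genes. They comprise the TET DNA hydroxylases, the JmjC histone demethylases and their relatives, the AlkB homologs, the collagen hydroxylases, 4 other protein hydroxylases, the carnitine and lipid hydroxylases, and 3 oxygenases of small metabolites. The HIF prolyl and asparaginyl hydroxylases were left out by the same rule. RNA came from whole kidneys of wild type C57BL/6 pups at postnatal day 15, with 3 control pups and 3 iron-deficient (FeD) pups. The dams of control pups were fed 220 ppm iron, and those of FeD pups a synthetic diet with 2 to 6 ppm iron, each starting before mating. The labels have the diets continue after birth until collection, whereas the paper's text describes them through pregnancy only. The legend on the RNA-seq uses the word littermates for the controls although the dams of the groups ate different diets, and the number of litters is not given in the sources used here. Polyadenylated RNA was sequenced, and raw reads were counted per gene, with 16189041 to 20374327 counts per control kidney and 13732173 to 20853293 per FeD kidney.

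Non-heme iron oxygenases hold iron in the active site and insert oxygen into a substrate. Most of them consume 2-oxoglutarate as a co-substrate and release succinate, and they act on DNA, RNA, histones, collagen and lipids. A few, such as the inositol, cysteine and acireductone oxygenases, do without 2-oxoglutarate. In kidney, inositol oxygenase is known as an enzyme of the proximal tubule, where inositol is broken down.

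Of the 44 genes, 43 had enough counts to be tested. With edgeR, and with P values adjusted by the method of Benjamini and Hochberg across the 15145 genes tested, 13 members passed an adjusted P of 0.05 with more transcript in FeD kidneys and 5 with less, and 25 did not pass. The 13 are 30.2% of the members tested, beside 22.4% of all genes that were higher. The 5 are 11.6% of the members tested, beside 23.3% of all genes that were lower. The same shares of all genes, 22.4% higher and 23.3% lower, stand beside the counts of every list below. A single member, Miox, was lower by at least 2-fold, or 2.33% of the members beside 5.69% of all genes, and the highest log2 fold change was 0.96 (Kdm3a), while 4.34% of all genes were higher by at least 2-fold. No overlap between the groups was seen for 27 of the 43 (62.8%), 17 with FeD above and 10 with FeD below, beside 58.1% of all genes. The median log2 fold change of the members was 0.10, and that of all tested genes was -0.0018. P4ha3, a collagen prolyl hydroxylase subunit, was not tested, with 9.59, 3.32 and 4.45 normalized counts in control kidneys 1 to 3 and 2.00, 13.0 and 1.73 in FeD kidneys 1 to 3. Normalized counts are counts scaled by TMM to a common library size.

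**Figure D1:**
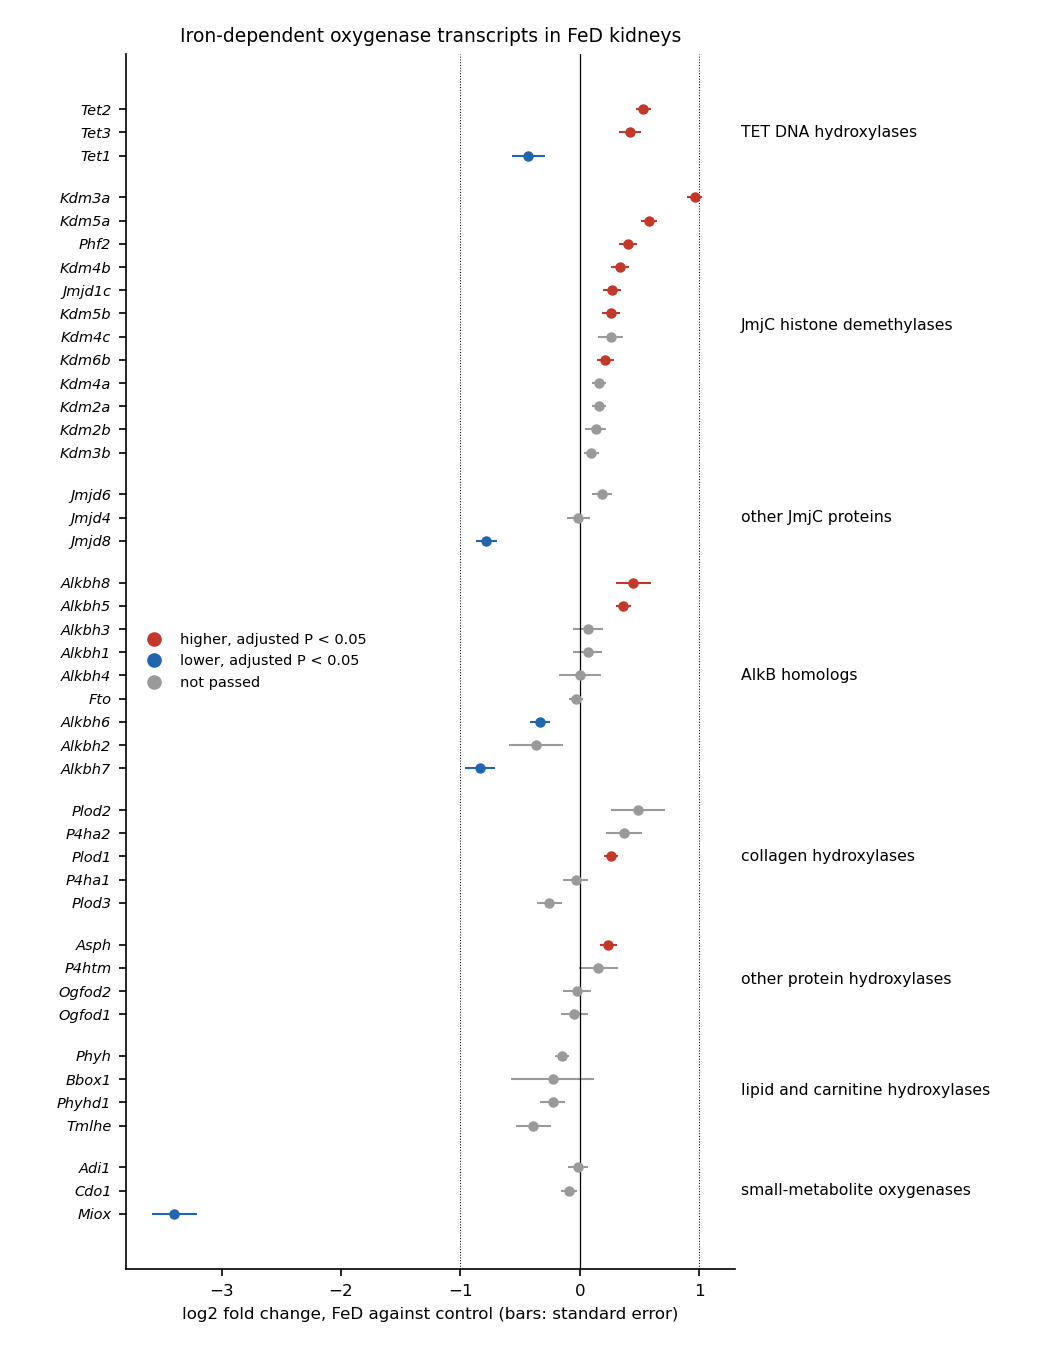
Log2 fold change of the 43 tested members, FeD against control, grouped by role. Points are estimates, horizontal bars their standard errors, and dotted lines mark a fold of 2. Red and blue points passed an adjusted P of 0.05 (13 higher, 5 lower) and grey points did not; Miox stands apart at -3.39, and all 12 JmjC histone demethylases lie to the right of 0.

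Apart from the members, the kidneys differed in adrenal, Xist and Y-linked transcripts and in cell type markers. The marker differences between the groups cannot be told apart from the diet. FeD kidney 2 held adrenal transcripts, with 10469 normalized counts summed over 4 adrenal markers against 135 to 293 in the other 5 kidneys. Without that library 15 members were higher and 4 lower. Xist exceeded the Y-linked genes in control kidneys 1 and 2 and FeD kidney 3, and the reverse held in the other 3, so the classes were unequal between groups. With this class as a term, added after the data were seen, 16 members were higher and 4 lower. Summed markers of the proximal tubule ranged from 345226 to 371823 normalized counts in control and from 246061 to 267214 in FeD kidneys, and 11 of the 16 markers were lower while 5 did not pass. Proliferation markers were lower in 5 of 5 cases and endothelial markers in 4 of 5. Collecting duct markers were higher in 4 of 6 cases and lower in 1, with summed levels of 19702 to 28564 normalized counts in control and 30598 to 51924 in FeD kidneys. The ratio of FeD to control was 0.344 for the summed markers of the distal convoluted tubule and 0.383 for those of erythroid blood. Only 2 of the 8 erythroid markers, Alas2 and Slc4a1, had enough counts to be tested, and no globin gene did. Slc4a1 is also 1 of the collecting duct markers, so the erythroid ratio is no clear measure of blood. The part of these differences in the results below was not tested, except where a value is given.

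Miox (inositol oxygenase, which opens the ring of inositol to form glucuronate) was the member that changed most. The gene lies at chr15:89164829-89167446 on the plus strand (mm9). It had 24996, 26789.5 and 25366 normalized counts in control kidneys 1 to 3. FeD kidneys 1 to 3 had 2708, 2914 and 1720.2. Every FeD kidney lay far below every control kidney, and FeD kidney 3 was the lowest. The log2 fold change was -3.39 ± 0.19 (SE, n = 3 per group), a 10.5-fold lower level (adjusted P = 2.0e-05, edgeR with Benjamini-Hochberg adjustment). Of 15145 genes tested, 30 had a lower log2 fold change. Across 15 other ways of processing, which included leaving out each kidney, the log2 fold change stayed between -3.54 and -3.18.

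In control kidneys Miox alone gave between 35.2% and 36.9% of all counts on the 44 genes. In FeD kidneys it gave 3.12% to 5.46%. The other 43 genes together moved the other way, from 0.255% to 0.258% of all counts in control to 0.278% to 0.296% in FeD kidneys. The promoter of Miox is shown because the gene is the only member that passed a fold of 2. In the 250 bases before its RefSeq start (chr15:89334223-89334472, plus strand, GRCm38.p6) the letters TATAAA, in capitals, begin 40 bases before the start.

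Miox: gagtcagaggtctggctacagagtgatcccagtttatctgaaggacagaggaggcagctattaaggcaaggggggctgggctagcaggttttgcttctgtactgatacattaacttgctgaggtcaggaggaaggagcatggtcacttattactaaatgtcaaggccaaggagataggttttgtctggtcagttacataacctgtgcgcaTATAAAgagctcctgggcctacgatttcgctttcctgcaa

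The letters TATAAA, read on the gene's strand, occurred within the last 60 bases before the start in 3.14% of 27025 RefSeq promoters, 1 for each gene as for the members. Miox was the only member among the 34 with a promoter in the table to hold them there. The bases just after the RefSeq start of Miox were not found in its protein-coding transcripts of the mm9 annotation. This start may therefore differ from that of the counted transcript.

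Because Miox is a proximal tubule enzyme, its level was also set against the proximal tubule markers. In whole kidney, fewer cells of a type and less RNA per cell cannot be told apart. Per 1000 counts on the 16 markers, Miox gave 70.7 to 72.4 counts in control kidneys and 6.44 to 11.4 in FeD kidneys, without overlap. The ratio of the means was 0.134, whereas the summed markers themselves had a ratio of 0.715. Single markers varied widely. Slc5a2, the glucose carrier of the early proximal tubule, was lower by more than Miox (log2 fold change -4.89 ± 0.15, adjusted P = 3.3e-06, edgeR with Benjamini-Hochberg adjustment). Slc34a1, the phosphate carrier, had a log2 fold change of -2.22 ± 0.12. Slc5a12, a lactate carrier of the same tubule, did not pass (0.18 ± 0.14, adjusted P = 0.33).

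**Figure D2:**
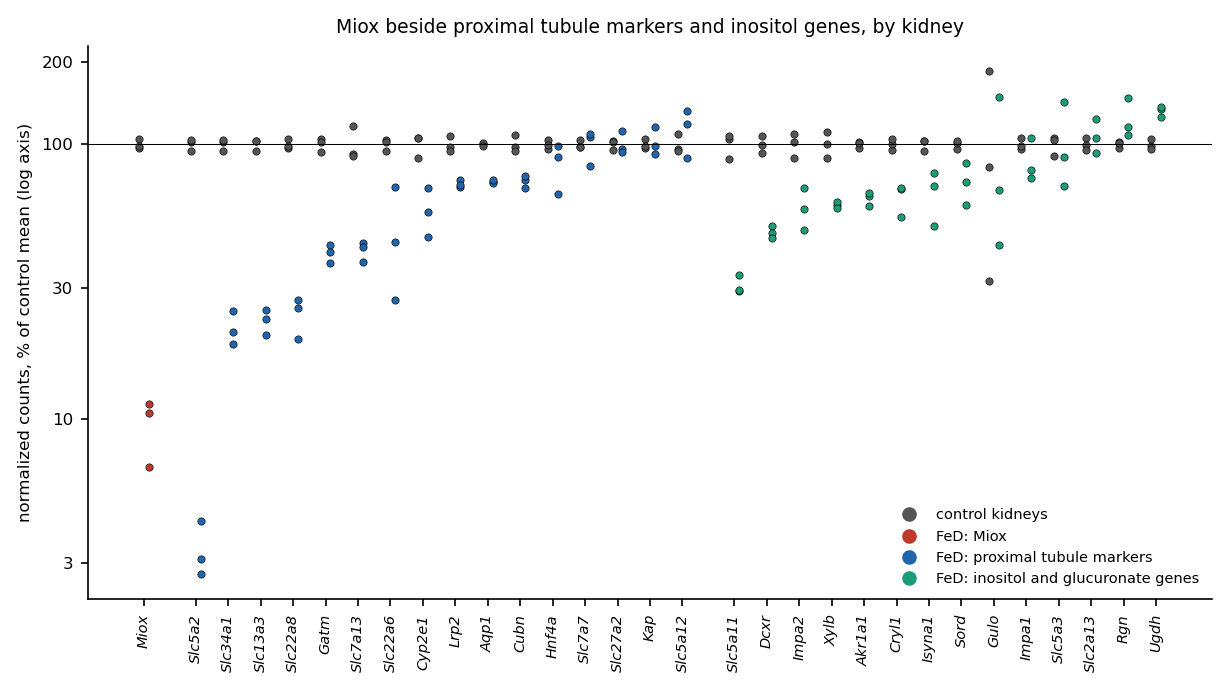
Normalized counts as a percentage of the control mean, on a log axis, for Miox, the 16 proximal tubule markers and the 14 tested genes of inositol and glucuronate metabolism. Each point is 1 kidney (grey, control; coloured, FeD). Among the genes drawn, the FeD kidneys are lower for Slc5a2 than for Miox, and 5 of the 16 proximal tubule markers did not pass the test.

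Other genes of inositol and glucuronate metabolism were counted as well. Of 14 tested, 8 were lower and 1 was higher, with a median log2 fold change of -0.52. Slc5a11, an inositol carrier, had 775, 922 and 939.9 normalized counts in control and 294, 257 and 259 in FeD kidneys (-1.70 ± 0.11 on the log2 scale). Dcxr, a xylulose reductase downstream of glucuronate, had a log2 fold change of -1.07 ± 0.07. Impa2, an inositol monophosphatase, had one of -0.76 ± 0.14. Slc5a3, an inositol carrier known to respond to osmolality, did not pass (0.02 ± 0.23, adjusted P = 0.96, edgeR with Benjamini-Hochberg adjustment). It was named after its values were seen.

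The other 2 oxygenases of small metabolites did not pass. Cdo1 (cysteine dioxygenase, the entry to taurine synthesis) had 2604, 2695 and 2939 normalized counts in control and 2469.7, 2525 and 2742 in FeD kidneys, which overlapped (log2 fold change -0.09 ± 0.07). Adi1, the acireductone dioxygenase of the methionine salvage pathway, had 899.6, 999 and 949.7 in control and 919, 1022 and 877 in FeD kidneys (-0.02 ± 0.08). Per 1000 counts on the proximal tubule markers, Cdo1 had a ratio of FeD to control of 1.31 and Adi1 one of 1.39, beside 0.134 for Miox. The summed markers themselves had a ratio of 0.715, so a gene with equal counts in both groups also gives a raised ratio. Of 13 other genes of cysteine and taurine metabolism, 5 were lower and 1 was higher. Fmo1, a flavin monooxygenase that can oxidise hypotaurine, had a log2 fold change of -2.30 ± 0.13, the taurine carrier Slc6a6 one of 1.17 ± 0.09, and the sulfite oxidase Suox one of -0.91 ± 0.12. Of 9 tested genes of methionine salvage and polyamine synthesis, 5 were lower and 1 was higher. Mri1, which acts upstream of Adi1 in the salvage pathway, was the higher one (0.84 ± 0.22). The ornithine decarboxylase Odc1 (-0.71 ± 0.14) and the spermine synthase Sms (-0.59 ± 0.09) were lower.

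TET enzymes oxidise methylated cytosine in DNA. Tet2 rose from 1048, 1026 and 1046 normalized counts in control kidneys 1 to 3 to 1428, 1612 and 1478 in FeD kidneys 1 to 3. The control kidneys lay close together and each FeD kidney lay above them (log2 fold change 0.53 ± 0.07, adjusted P = 4.7e-04, edgeR with Benjamini-Hochberg adjustment). Tet3 had 2081, 1885 and 2210.1 in control and 2532, 2660.3 and 3088 in FeD kidneys, again without overlap (0.42 ± 0.09, adjusted P = 0.0062). Both calls held under all 15 alternatives. Tet1 went the other way, with 393, 401 and 433 normalized counts in control and 245, 301 and 363 in FeD kidneys. FeD kidney 3 was nearest to the controls, and the groups did not overlap (-0.43 ± 0.14, adjusted P = 0.035). The call for Tet1 was lost without any of control kidneys 1, 2 or 3, without FeD kidney 1 and without FeD kidney 2, where the adjusted P reached 0.11 (without control kidney 3). It was also lost with the Xist term (adjusted P = 0.055). Per kilobase of exon the control level of Tet1 was 27.8 ± 1.42 normalized counts (mean ± SD, n = 3), beside 113 ± 1.33 for Tet2 and 186 ± 14.8 for Tet3.

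JmjC histone demethylases remove methyl groups from histone lysines. Of 12 tested, 7 were higher and 5 did not pass, beside 22.4% of all genes that were higher, and all 12 had a positive log2 fold change, with a median of 0.26. Under the 15 alternatives, which refit the same kidneys, the sign was positive for all 12 each time, and between 5 and 8 were higher. With a correction for gene length, however, the log2 fold change was only 0.00099 for Kdm2b and 0.0021 for Kdm3b. Kdm3a, which removes repressive methylation from histone H3, rose the most. It had 995, 964 and 901 normalized counts in control kidneys 1 to 3. In FeD kidneys 1 to 3 it had 1804, 1886 and 1888. The FeD kidneys lay within a narrow band, each above all controls, and the change of 0.96 ± 0.06 on the log2 scale was just under a fold of 2 (adjusted P = 3.4e-05, edgeR with Benjamini-Hochberg adjustment).

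Kdm5a, which removes methyl marks of active promoters, had 1417, 1435 and 1329.8 normalized counts in control and 1945, 2211 and 2083 in FeD kidneys (0.58 ± 0.07 on the log2 scale, adjusted P = 3.7e-04 by edgeR with Benjamini-Hochberg adjustment). Its relative Kdm5b had 1280.3, 1263 and 1219 in control and 1354, 1524 and 1620.1 in FeD kidneys, a smaller shift without overlap (0.26 ± 0.08, adjusted P = 0.024). Phf2, a demethylase with a PHD finger, had 1034, 1079 and 1094 in control and 1329, 1368 and 1548 in FeD kidneys (0.41 ± 0.07, adjusted P = 0.0030). For Phf2 FeD kidney 3 was the highest, and the other FeD kidneys were also above every control. Kdm4b, a demethylase of trimethylated histone lysines, had 1042, 1043 and 1135 in control and 1471, 1282 and 1319 in FeD kidneys (0.34 ± 0.08, adjusted P = 0.0072). Jmjd1c, of the same family as Kdm3a, had 1643, 1625 and 1427 in control and 1764, 1987 and 1910.2 in FeD kidneys (0.27 ± 0.08, adjusted P = 0.020). Kdm6b, which removes the methyl mark set by Polycomb, overlapped between groups, with 1549, 1574 and 1759.7 in control and 1979.6, 1936 and 1755 in FeD kidneys (0.21 ± 0.07, adjusted P = 0.045).

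The calls for Kdm3a, Kdm5a, Phf2 and Kdm4b held under all 15 alternatives. That for Kdm6b was lost under 9 of them. Among these were the fits without control kidney 1, control kidney 2, FeD kidney 1 or FeD kidney 2, and with the replicate number as a block. Its adjusted P by edgeR was highest, at 0.28, with that block and a correction for gene length together. The call for Kdm5b was lost without any 1 of the control kidneys and under a correction for gene length, alone or with the block (adjusted P up to 0.11). Jmjd1c was lost without control kidney 3 (adjusted P = 0.077). The 5 demethylases that did not pass had log2 fold changes of 0.26 (Kdm4c), 0.16 (Kdm4a), 0.16 (Kdm2a), 0.13 (Kdm2b) and 0.10 (Kdm3b). Of these, Kdm2a passed without FeD kidney 1 or FeD kidney 3, with DESeq2's size factors and with the Xist term. Kdm4a passed without FeD kidney 2, and Kdm4c without FeD kidney 1 and with the Xist term.

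Of the other JmjC proteins 1 of 3 passed, with less transcript (33.3%, beside 23.3% of all genes that were lower). Jmjd8, whose product lies in the endoplasmic reticulum, had 529, 611 and 614 normalized counts in control and 341, 333 and 346 in FeD kidneys. The FeD kidneys were nearly equal and each was below all controls (-0.78 ± 0.09, adjusted P = 3.2e-04, edgeR with Benjamini-Hochberg adjustment), and the call held under all 15 alternatives. In the mm9 annotation 27.1% of the exon bases of Jmjd8 overlap Stub1 and another gene on the opposite strand, and reads of overlapping genes cannot be told apart where the counting did not use strand. Jmjd6, a lysyl hydroxylase of splicing proteins, had a log2 fold change of 0.19 ± 0.08 and did not pass (adjusted P = 0.094). Jmjd4 had one of -0.01 ± 0.10.

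Many AlkB homologs strip methyl and other alkyl groups from nucleic acids. Of 9 tested, 2 were higher (22.2%, beside 22.4% of all genes), 2 were lower (22.2%, beside 23.3%) and 5 did not pass, so the shares were near those of all genes. Alkbh5, a demethylase of methylated adenosine in RNA, rose from 2591, 2646 and 2830.5 normalized counts in control kidneys 1 to 3 to 3470.0, 3358 and 3564 in FeD kidneys 1 to 3, with no overlap (0.37 ± 0.06 on the log2 scale, adjusted P = 0.0019, edgeR with Benjamini-Hochberg adjustment). Fto, the other RNA adenosine demethylase, had 1643, 1620.3 and 1688 in control and 1603, 1695 and 1557 in FeD kidneys, which overlapped (-0.03 ± 0.06, adjusted P = 0.71). Alkbh8, which modifies wobble uridines in transfer RNA, had 161, 152 and 181 in control and 202, 208 and 263 in FeD kidneys (0.45 ± 0.14, adjusted P = 0.032). The call for Alkbh8 was lost without any 1 of the control kidneys or without FeD kidney 3, which was its highest (adjusted P up to 0.12).

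Alkbh7, a mitochondrial protein linked to programmed necrosis, was the AlkB homolog that changed most. It had 372, 371 and 452 normalized counts in control kidneys 1 to 3 and 247, 194 and 227 in FeD kidneys 1 to 3. Each FeD kidney was below each control, and control kidney 3 was the highest (-0.84 ± 0.13 on the log2 scale, adjusted P = 0.0013, edgeR with Benjamini-Hochberg adjustment). Alkbh6 had 521, 484 and 505 in control and 428, 391 and 379 in FeD kidneys (-0.33 ± 0.08, adjusted P = 0.012), a call lost without control kidney 1 (adjusted P = 0.054). The DNA repair members Alkbh2 (-0.37 ± 0.23) and Alkbh3 (0.07 ± 0.12) did not pass, nor did Alkbh1 (0.06 ± 0.12) and Alkbh4, which was near 0 (SE 0.18).

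**Figure D3:**
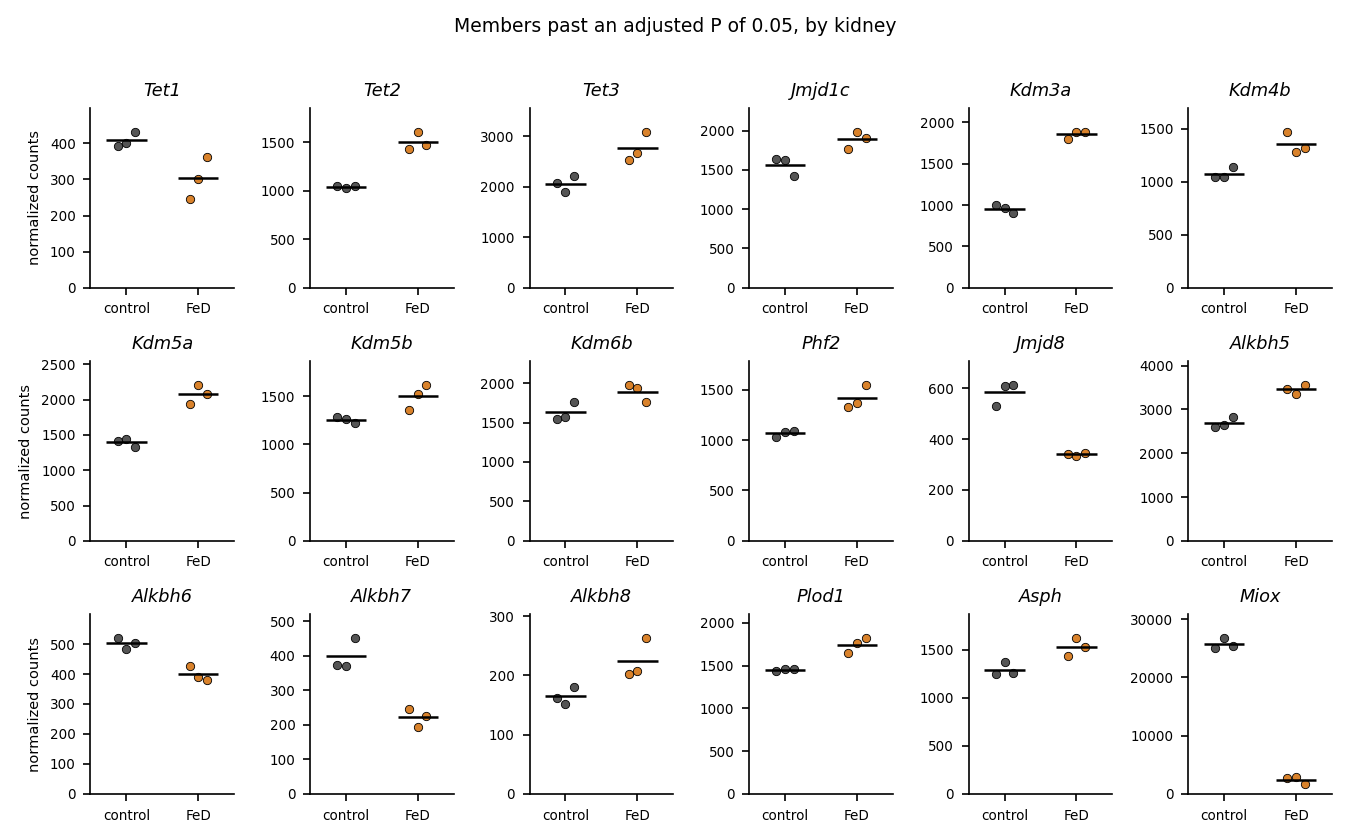
Normalized counts in each kidney for the 18 members that passed an adjusted P of 0.05, with a separate axis from 0 for each gene. Points are kidneys (grey, control; orange, FeD; 3 each) and lines are group means. The groups do not overlap for 17 of the 18 genes, the exception being Kdm6b, whose FeD kidney 3 lies just under control kidney 3. The 18 were picked by the test on these same counts, which favours genes without overlap. Of all tested genes, 58.1% did not overlap.

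Collagen hydroxylases modify prolines and lysines of procollagen in the endoplasmic reticulum. Of 5 tested, 1 was higher, beside 22.4% of all genes, and 4 did not pass. Plod1, a lysyl hydroxylase, rose from 1435, 1462 and 1463 normalized counts in control to 1650.5, 1763 and 1826 in FeD kidneys, without overlap (0.26 ± 0.06, adjusted P = 0.0075, edgeR with Benjamini-Hochberg adjustment), and held under all 15 alternatives. Plod2, the lysyl hydroxylase of collagen telopeptides, had 1246, 1169.9 and 1224 in control and 1400.4, 1231 and 2455 in FeD kidneys. FeD kidney 3 alone stood high, and FeD kidney 2 lay within the controls (0.49 ± 0.23, adjusted P = 0.11). Without FeD kidney 3 the log2 fold change was 0.13, and without FeD kidney 2 it was 0.69 and passed. Plod2 also passed with the Xist term. P4ha2, a catalytic subunit of collagen prolyl hydroxylase, had 302, 339.8 and 345 in control and 377, 365 and 528 in FeD kidneys (0.37 ± 0.15, adjusted P = 0.075), again with FeD kidney 3 highest. It passed without FeD kidney 2 and with the Xist term. P4ha1, the other main catalytic subunit, had 1379, 1496 and 1427 in control and 1369, 1204 and 1616 in FeD kidneys, which overlapped (-0.04 ± 0.10, adjusted P = 0.80). Plod3 had 1194, 1241 and 1299.5 in control and 1045, 886 and 1191 in FeD kidneys (-0.26 ± 0.11, adjusted P = 0.078). It passed without FeD kidney 3, and with the replicate block and a length correction together. Plod3 shares 11.7% of its exon bases with Znhit1 on the opposite strand.

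The genes that act with these hydroxylases went in both directions. Of 21 collagen processing partners, 6 were higher and 8 lower. P3h1, P3h2 and P3h3, further collagen prolyl hydroxylases that use iron, are counted here and among the other iron oxygenases. Lox, the lysyl oxidase that cross-links collagen, had 1228, 1318 and 1414 normalized counts in control and 4659, 5957 and 9282 in FeD kidneys (2.33 ± 0.23 on the log2 scale, adjusted P = 1.7e-04, edgeR with Benjamini-Hochberg adjustment). Its relative Loxl4 had a log2 fold change of -2.18 ± 0.15, and Pcolce2, an enhancer of procollagen cleavage, one of -1.24 ± 0.32. Of the 15 collagen chains tested, 2 were higher and 7 lower, with a median of -0.31. Col15a1 (-1.79 ± 0.21) and Col6a3 (-1.60 ± 0.07) were lower, whereas Col6a1 was higher (1.36 ± 0.09). Collagen chain genes are also expressed by fibroblasts, and of 7 fibroblast and pericyte markers 3 were higher and 3 lower, with summed levels of 34168 to 35640 normalized counts in control and 23233 to 30829 in FeD kidneys. Their part in the collagen results was not tested.

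Several members are known as genes that HIF, the hypoxia-inducible factor, can induce: Kdm3a, Kdm4b, Kdm4c, P4ha1, P4ha2, Plod1 and Plod2. Of these 7, 3 were higher (Kdm3a, Kdm4b and Plod1), 4 did not pass, and the median log2 fold change was 0.34. The 3 are 42.9% of the list, beside 22.4% of all genes that were higher. Of 10 reference targets of HIF, 7 were higher and 1 was lower. Ankrd37, an ankyrin repeat gene, had a log2 fold change of 2.42 ± 0.18, the mitophagy receptor Bnip3 one of 1.55 ± 0.13, and Adm (adrenomedullin) one of 1.25 ± 0.14. Car9, a carbonic anhydrase, was the lower one (-0.91 ± 0.18), and Slc2a1 and Vegfa did not pass. Among the 4 HIF hydroxylases, Egln3, a prolyl hydroxylase that is also among the reference targets, had 312, 321 and 304 normalized counts in control and 715, 646 and 839 in FeD kidneys (1.23 ± 0.11). Hif1an, the asparaginyl hydroxylase, was higher by 0.16 ± 0.06 on the log2 scale (adjusted P = 0.0495, edgeR with Benjamini-Hochberg adjustment), while Egln1 (0.07 ± 0.08) and Egln2 (-0.09 ± 0.09) did not pass.

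The promoters of these members, where one was matched, were read for the core of the HIF binding motif. This core is ACGTG or GCGTG on either strand (CACGT or CACGC when read on the opposite strand). Kdm4c held no core, Kdm4b and Plod2 had no matched promoter, and the other 4 are shown. The cores ACGTG and CACGT overlap where the letters CACGTG occur. The sequences are the 250 bases before the RefSeq start on the strand of the gene (GRCm38.p6), with each core in capitals. They are shown because Kdm3a and Plod1 passed and the prolyl hydroxylase subunits did not. The log2 fold change of P4ha2 (0.37 ± 0.15) was nevertheless above that of Plod1 (0.26 ± 0.06), and its groups did not overlap. P4ha2 also passed without FeD kidney 2 and with the Xist term. Kdm3a (chr6:71632918-71633167, minus strand, the most upstream of 3 RefSeq starts) and Plod1 (chr4:147936777-147937026, minus strand) hold 1 core each. P4ha1 (chr10:59323046-59323295, plus strand) and P4ha2 (chr11:54100674-54100923, plus strand) hold 3 each.

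Kdm3a: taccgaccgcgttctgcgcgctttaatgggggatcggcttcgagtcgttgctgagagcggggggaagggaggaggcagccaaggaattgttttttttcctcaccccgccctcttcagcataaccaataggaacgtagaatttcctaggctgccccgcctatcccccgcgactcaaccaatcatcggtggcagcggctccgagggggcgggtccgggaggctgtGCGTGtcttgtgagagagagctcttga

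Plod1: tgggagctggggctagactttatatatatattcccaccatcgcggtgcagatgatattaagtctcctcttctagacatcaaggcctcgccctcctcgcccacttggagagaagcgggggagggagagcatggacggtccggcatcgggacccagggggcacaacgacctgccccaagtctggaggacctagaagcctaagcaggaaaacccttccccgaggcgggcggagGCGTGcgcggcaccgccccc

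P4ha1: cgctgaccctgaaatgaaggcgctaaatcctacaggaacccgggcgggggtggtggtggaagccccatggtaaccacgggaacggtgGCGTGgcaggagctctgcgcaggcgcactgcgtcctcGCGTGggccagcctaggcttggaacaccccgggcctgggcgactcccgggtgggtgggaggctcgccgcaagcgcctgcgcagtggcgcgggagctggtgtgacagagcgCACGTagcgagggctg

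P4ha2: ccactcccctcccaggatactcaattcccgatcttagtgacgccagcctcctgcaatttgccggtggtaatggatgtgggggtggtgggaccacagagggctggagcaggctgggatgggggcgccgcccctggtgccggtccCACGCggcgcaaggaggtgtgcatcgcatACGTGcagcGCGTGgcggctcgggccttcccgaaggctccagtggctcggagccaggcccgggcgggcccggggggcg

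At least 1 core was found in 38.6% of 27025 RefSeq promoters of this length, 1 for each gene as for the members. Of the 34 members with a promoter in the table, 16 held one. These were 6 of 9 members that were higher, 2 of 5 that were lower and 8 of 19 that did not pass. The most cores were in a promoter whose gene did not pass, Plod3, and P4ha1 with 3 cores had a log2 fold change of -0.04. A match gives the letters only, and binding was not measured. The bases just after the start shown for Kdm3a were not found in its protein-coding transcripts of the mm9 annotation. Those of Plod1, P4ha1 and P4ha2 were.

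Of the 4 other protein hydroxylases, 1 passed the test. Asph, which hydroxylates EGF-like domains of secreted proteins, had 1251, 1376 and 1258 normalized counts in control and 1433, 1625 and 1531 in FeD kidneys (0.24 ± 0.07 on the log2 scale, adjusted P = 0.024, edgeR with Benjamini-Hochberg adjustment). The groups did not overlap, but the call was lost without control kidney 1 or control kidney 3 and under a correction for gene length (adjusted P up to 0.35). In addition, 14.7% of its exon bases overlap Clvs1 and another gene on the opposite strand. P4htm, a prolyl hydroxylase of the endoplasmic reticulum membrane (0.16 ± 0.16), Ogfod1, which hydroxylates a ribosomal protein (-0.05 ± 0.11), and Ogfod2 (-0.02 ± 0.12) did not pass.

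Of the 4 lipid and carnitine hydroxylases, 0 passed by edgeR's adjusted P and 0 by DESeq2's, whereas 2 had an unadjusted P under 0.05 by edgeR. All 4 had a negative log2 fold change, and 3 did not overlap between groups, beside 58.1% of all genes that did not. Phyh, the peroxisomal phytanoyl-CoA hydroxylase of alpha oxidation, had 5211, 5322 and 5441 normalized counts in control and 4721, 4899.8 and 4796 in FeD kidneys. Each FeD kidney lay a little below the controls (-0.15 ± 0.06, adjusted P = 0.075, edgeR with Benjamini-Hochberg adjustment). Tmlhe, which catalyses the entry step of carnitine synthesis, had 322, 331 and 321 in control and 202, 236 and 304 in FeD kidneys (-0.39 ± 0.15, adjusted P = 0.061). FeD kidney 3 was nearest to the controls for Tmlhe, and without it the gene passed, with a log2 fold change of -0.56. Bbox1, which catalyses the last step, was low in every kidney (50.8, 65.3 and 64.1 in control and 49.0, 79.2 and 28.5 in FeD), with overlap (-0.23 ± 0.35). Phyhd1 had -0.23 ± 0.10, and 52.4% of its exon bases overlap Lrrc8a and Nup188 on the same strand, so that its counts are uncertain.

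Around these enzymes, 13 genes of carnitine handling split into 4 higher and 4 lower. The carnitine and ergothioneine carrier Slc22a4 (-1.07 ± 0.12) and the serine hydroxymethyltransferase Shmt2 (-0.86 ± 0.09) were lower. Crot, the peroxisomal carnitine octanoyltransferase, was higher (0.65 ± 0.07). Of 8 genes of alpha oxidation, 2 were lower and 1 was higher. Amacr, a racemase of branched-chain acyl-CoA, was lower (-0.66 ± 0.08), as was the thioesterase Acot8 (-0.47 ± 0.10), and the fatty aldehyde dehydrogenase Aldh3a2 was higher (0.30 ± 0.06).

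Other non-heme iron oxygenases outside the 44 were lower more often than higher. Of 21 tested, 10 were lower and 4 higher, with a median log2 fold change of -0.31. Haao, which acts late in tryptophan breakdown, had 1009, 1064 and 919 normalized counts in control and 218, 147 and 164 in FeD kidneys (-2.49 ± 0.14 on the log2 scale, adjusted P = 2.2e-05, edgeR with Benjamini-Hochberg adjustment). Hpd, of tyrosine breakdown, had a log2 fold change of -1.65 ± 0.19. The 4 that were higher were Kdm7a (0.78 ± 0.08), Hspbap1 (0.58 ± 0.19), Phf8 (0.36 ± 0.09) and Tyw5 (0.32 ± 0.11), which were named after their values were seen. Kdm7a and Phf8 are JmjC histone demethylases, but they come from the higher genes alone. The direction of any other JmjC demethylase in this list is not given here, so these genes do not extend the result for the members.

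Most of the 44 enzymes use 2-oxoglutarate, and succinate and fumarate can inhibit them. Of 20 genes that make or use these metabolites, 17 were lower (85.0%, beside 23.3% of all genes) and 3 did not pass. Their median log2 fold change was -0.67, beside -0.64 for the proximal tubule markers. The part of the proximal tubule in this result was not tested. The 2-oxoglutarate dehydrogenase subunit Ogdh had 13364, 14106 and 15239 normalized counts in control and 8154, 7490.0 and 7720.4 in FeD kidneys (-0.87 ± 0.08 on the log2 scale). Its relative Ogdhl had a log2 fold change of -1.72 ± 0.33 and Idh3a, of the isocitrate dehydrogenase that forms 2-oxoglutarate, one of -0.78 ± 0.08. Metabolites were not measured in these files.

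Levels of different genes were compared as normalized counts per kilobase of exon. In control kidneys Miox stood first, with 15577 ± 574 (mean ± SD, n = 3). Phyh followed with 2813 ± 60.7 and Cdo1 with 1795 ± 113, each apart from the next by more than the SD. Adi1 with 503 ± 26.5, Alkbh5 with 449 ± 20.9 and Alkbh7 with 387 ± 45.3 came after them, and Alkbh5 and Alkbh7 differed by less than their SDs combined. In FeD kidneys the order was Phyh with 2539 ± 47.3, Cdo1 with 1686 ± 94.0 and Miox with 1482 ± 386, where Cdo1 and Miox did not differ beyond their spread. Kdm3a moved from place 20 to place 7 per kilobase, with 192 ± 9.72 in control and 375 ± 9.71 in FeD kidneys. Alkbh7 moved from place 6 to place 20.

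**Figure D4:**
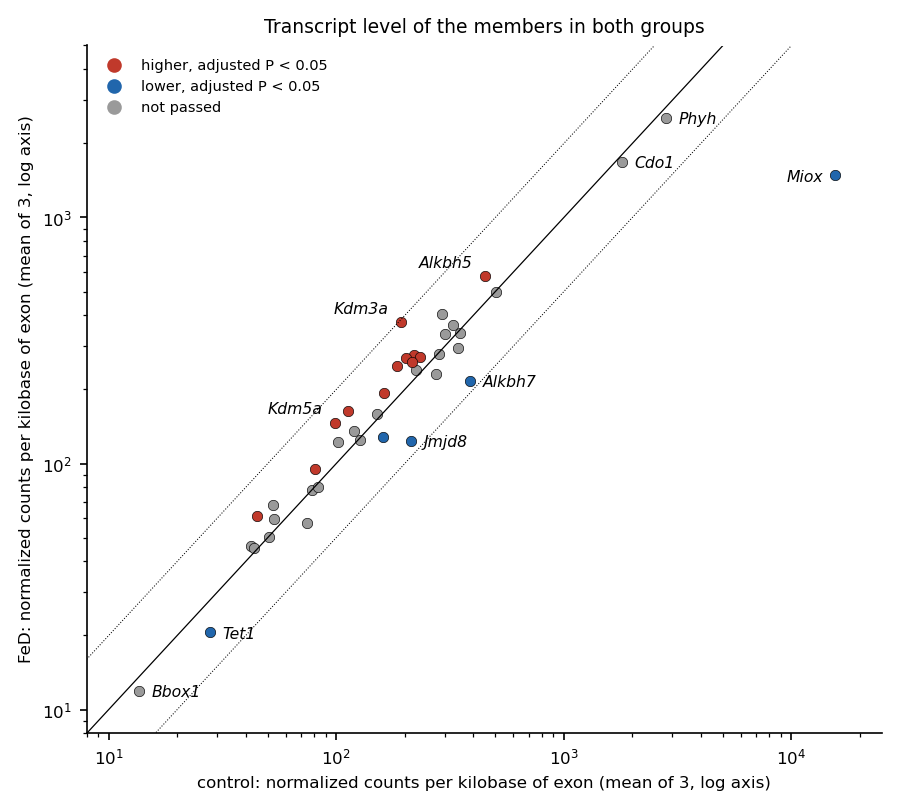
Mean normalized counts per kilobase of exon in control (x) and FeD (y) kidneys, both on log axes, for the tested members with an exon length. The solid line marks equal levels and dotted lines a fold of 2, and colours give the call. Miox, at 15577 in control and 1482 in FeD, is the only point outside the dotted lines.

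The results moved with the length of the genes. Over all tested genes with an exon length, the median log2 fold change was -0.13 among those of at most 2298 bases, -0.04 up to 3637 bases, 0.03 up to 5543 bases and 0.11 above that, with 3431 to 3433 genes in each of these 4 bins. Of the 42 members with a length, 18 were in the longest bin. The median exon length was 6954 bases for the JmjC histone demethylases and 3637 bases for all tested genes. After an offset for length was fitted in each library, the median of the JmjC demethylases was 0.18 in place of 0.26, and 5 of 12 were higher in place of 7, while Kdm5b and Kdm6b no longer passed. Jmjd1c is 1 of the 5, but no exon length was matched to it and it received no correction. Over all members 10 were higher and 5 lower with this correction. The log2 fold change of Kdm3a was 0.93, that of Miox -3.27 and that of Tet1 -0.58.

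**Figure D5:**
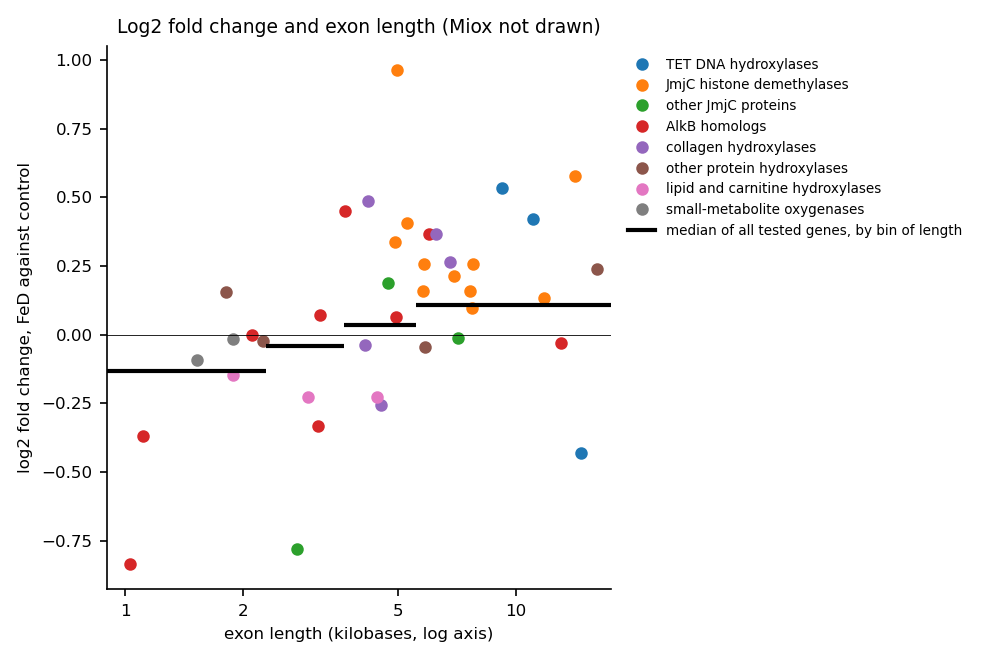
Log2 fold change (FeD against control) against exon length in kilobases, on a log axis, for the members other than Miox and P4ha3 with an exon length, coloured by role. Black bars are the medians of all tested genes in each of 4 bins of length, which run from -0.13 to 0.11. Kdm3a, at 0.96, lies far above the bar of its length, and Tet1, among the longest members, lies below its bar.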

How the data were processed

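The authors trimmed the reads (Trimmomatic), placed them on mm9 (TopHat), retained those with a unique position and deposited raw counts per gene from HTSeq, without normalization or pooling. The annotation and strand setting are not given in the sources used here. TopHat2 2.0.11 and CASAVA 1.8.2 stand in the submitters' processing notes. Groups came from the labels, and litters are not identified per pup, so p-values measure the spread between these kidneys.

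The deposited counts were fitted with edgeR 4.0.16 in R 4.3.3 (filterByExpr, TMM, quasi-likelihood test) on all 24422 genes, 15145 after the filter, with Benjamini-Hochberg adjustment. A call needed an adjusted P under 0.05. The SE is the log2 fold change over the square root of F. A floor of 3 counts was 0.144 to 0.218 CPM and covers counting error only. Alternatives were DESeq2 1.42.0, other scalings and filters, a replicate block, a length correction and each kidney left out. Exon lengths and overlaps came from GENCODE on mm9 (42 members matched), and promoters from RefSeq on GRCm38.p6 (34 members matched). The fit was tested on simulated counts, where small changes were often missed. A member that did not pass is therefore not shown to be unchanged.

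The members, lists and alternatives were chosen with earlier results of these data known. All 44 members are reported, and of each pathway list the 3 genes with the largest absolute log2 fold change among those that passed; markers are named where a result turns on them. Car9, Slc2a1, Vegfa, Egln1, Egln2 and Kdm1b were named after their values were seen, as were others marked in the text. A gene that this rule would name is not reported here.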

Additional observations from a re-analysis of the deposited data

How the results depend on the processing

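Of the 18 members that passed, 11 passed under all 15 alternatives, and 0 changed sign. Leaving out each kidney in turn gave 9 to 15 members higher, 3 to 7 lower and 1 changed by 2-fold. The 3 lower came without control kidney 1, where Tet1 and Alkbh6 no longer passed. Over the other settings 10 to 16 were higher and 4 to 6 lower, and 1 changed by 2-fold throughout. With the replicate number as a block 12 were higher and 5 lower, with Kdm6b lost. Same-numbered kidneys come from different animals, and their deviations from the group means correlated at -0.16, 0.0001 and -0.03, so the numbers do not pair them. The causes were not tested.

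Of the 25 members that did not pass, 11 changed sign somewhere. Alkbh4 had a log2 fold change of 0.0081 with DESeq2's size factors and 0.0083 with DESeq2. A length correction gave 0.0960 for Alkbh4, 0.0668 for Ogfod2, 0.0463 for Cdo1 and 0.0961 for Adi1, and with the replicate block as well these were 0.0789, 0.0637, 0.0440 and 0.0950. The Xist term gave 0.0138 for Jmjd4 and 0.0119 for P4ha1. Leaving out 1 kidney gave ranges of -0.0593 to 0.0542 for Jmjd4, -0.196 to 0.134 for Alkbh4, -0.0621 to 0.0428 for Adi1, -0.0171 to 0.136 for Alkbh1, -0.120 to 0.0859 for Ogfod2, -0.0270 to 0.188 for Alkbh3, -0.142 to 0.0774 for P4ha1, -0.161 to 0.0587 for Ogfod1, -0.0447 to 0.0097 for Fto and -0.621 to 0.0933 for Bbox1. P4ha3 had too few counts to be tested.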

Other observations

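Genes that act on the same marks as the TET, JmjC and AlkB members were also counted. Of 10 tested genes of DNA methylation and its repair, 4 were higher and 4 lower. Uhrf1, which guides maintenance methylation in dividing cells, had 433, 304 and 337 normalized counts in control and 220.1, 166 and 107 in FeD kidneys (log2 fold change -1.13 ± 0.25, adjusted P = 0.0068, edgeR with Benjamini-Hochberg adjustment). Mbd3 and Mbd1, of the methyl-CpG binding domain family, had log2 fold changes of -0.54 ± 0.07 and 0.47 ± 0.08. Proliferation markers, summed, ranged from 1899 to 2179 normalized counts in control and from 519 to 661 in FeD kidneys, and their part in the level of Uhrf1 was not tested.

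Of 20 histone methyltransferases, the enzymes that add the marks the demethylases remove, 9 were higher and 3 lower, with a median log2 fold change of 0.17. Suv39h1, which sets a repressive mark on histone H3, rose from 355, 319.9 and 319 to 597, 513 and 560.5 normalized counts (0.75 ± 0.09, adjusted P = 4.7e-04, edgeR with Benjamini-Hochberg adjustment). Setd8 (-0.48 ± 0.13) and Suv420h2 (-0.43 ± 0.09), both of which methylate histone H4, were lower. Of the flavin-dependent demethylases, which use no iron, Kdm1a was higher (0.25 ± 0.06) and Kdm1b did not pass (-0.02 ± 0.08).

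Of 14 genes that write or read methylated adenosine in RNA, the mark that Alkbh5 and Fto remove, 4 were higher and 1 was lower. Mettl16, a methyltransferase, was the lower one (-0.78 ± 0.13), and the readers Ythdc2 (0.48 ± 0.12) and Ythdc1 (0.44 ± 0.06) were higher.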
